A study of Rattus norvegicus with 24 samples.

Results

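The 9 genes Ddit4, Fkbp5, Tsc22d3, Sgk1, Zbtb16, Klf9, Errfi1, Nr3c1 and Hsd11b1, which belong to the glucocorticoid pathway, were followed through the lungs of rats that had breathed hexanal. They were found on the array by the RefSeq accession of each probe. These 9 of 15443 named genes were read by 11 of 30367 probes, with a second probe each for Ddit4 and Nr3c1, and all 9 passed the filter on dim probes. Ddit4 was selected on its measured values, as one of the larger falls at 1000 and 1500 ppm, and the others were added as known glucocorticoid targets or pathway members with the same dose comparisons known. Differences between dose groups are therefore given for these 9 genes as a description. Where the 1.5-fold rule described further on is applied to them, its calls do not count as a test.

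The lungs came from 24 Fischer-344 rats, an inbred strain, in 4 groups of 6 with 3 males and 3 females each. The control group breathed filtered clean air, and the low-dose, middle-dose and high-dose groups breathed hexanal, an aldehyde, at 600, 1000 and 1500 ppm for 4 h a day on 5 days a week. The labels give the rats' age as 7 to 8 weeks and the exposure as 5 weeks, whereas the study's methods give 4 weeks. For the doses, the sample titles and the methods have ppm and the treatment protocol in the labels has mg/m3. The labels state neither the hour at which a rat was killed nor the interval since its last exposure. Each array was read in 1 colour and carried lung tissue RNA of 1 rat, so that fewer cells of a type and less RNA per cell cannot be told apart. The 6 slides held 4 arrays each, all of 1 sex, and no slide held controls together with the middle-dose or high-dose group.

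Glucocorticoids bind the receptor encoded by Nr3c1, which is held by chaperones in the cytoplasm until the steroid arrives and then acts on genes in the nucleus. Hsd11b1 regenerates active steroid inside cells. Among the targets that the receptor switches on, Fkbp5 is a co-chaperone that restrains the receptor, Tsc22d3 encodes the anti-inflammatory protein GILZ, Sgk1 is a kinase that acts on sodium transport, Zbtb16 and Klf9 are transcription factors, and Errfi1 is a feedback inhibitor of the EGF receptor. Ddit4, also called REDD1, restrains the growth kinase complex mTORC1 and is induced by glucocorticoids, low oxygen and other stresses. Lung is a responsive tissue in which glucocorticoids mature the epithelium and restrain inflammation.

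Sequence upstream of the start was available for 7 of the 9 genes, in 12 windows of 250 bases from RefSeq on GRCr8. Zbtb16 and Hsd11b1 had no entry. Ddit4 and Errfi1 are shown because they were the members with the largest falls at 1500 ppm, and Fkbp5 because it differed most between the sexes. The Ddit4 window is chr20:28437038-28437287 on the minus strand, the Errfi1 window chr5:166606591-166606840 on the plus strand and the Fkbp5 window chr20:6543556-6543805 on the minus strand. Each is read 5′ to 3′ towards the start, and capitals mark matches to the motifs searched.
Ddit4: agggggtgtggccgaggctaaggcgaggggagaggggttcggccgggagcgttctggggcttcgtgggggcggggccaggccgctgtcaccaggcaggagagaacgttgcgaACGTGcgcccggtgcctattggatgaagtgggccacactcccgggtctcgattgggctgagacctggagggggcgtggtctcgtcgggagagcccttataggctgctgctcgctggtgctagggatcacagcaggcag
Errfi1: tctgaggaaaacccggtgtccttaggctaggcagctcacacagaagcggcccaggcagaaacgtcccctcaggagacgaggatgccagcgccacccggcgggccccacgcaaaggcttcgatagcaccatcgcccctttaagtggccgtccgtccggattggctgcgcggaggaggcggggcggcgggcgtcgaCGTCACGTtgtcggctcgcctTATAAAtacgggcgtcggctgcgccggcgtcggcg
Fkbp5: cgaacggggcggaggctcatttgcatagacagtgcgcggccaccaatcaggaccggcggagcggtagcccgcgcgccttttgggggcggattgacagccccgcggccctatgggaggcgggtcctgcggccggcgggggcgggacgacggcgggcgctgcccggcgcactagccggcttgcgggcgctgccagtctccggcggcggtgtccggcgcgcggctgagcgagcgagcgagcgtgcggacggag
Letters were searched on both strands. The glucocorticoid core hexamer AGAACA was found in 17.5% of all 33469 windows of this length and in 0 of the 12 member windows, and the full palindrome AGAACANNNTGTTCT in 0.012% of all windows and in 0 of the 12. ACGTG, the core of the hypoxia response element, stood in 16.6% of all windows and in 3 of the 12, among them Ddit4 from 138 to 134 bases before the start. TGACG, the core of the cAMP response element, stood in 18.2% of all windows and in 3 of the 12. In Errfi1 it lay from 56 to 52 bases before the start and overlapped an ACGTG match from 53 to 49, and Klf9 had a similar overlap. TATAAA stood in 12.9% of all windows and in 4 of the 12, including Errfi1 but neither Ddit4 nor Fkbp5. The Fkbp5 window held no match to any of the 5. Only these 250 bases were searched, so sites farther upstream or within the genes are not covered. Some genes hold several of the 12 windows.

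Levels are log2 processed signals relative to the 75th percentile of the same array. All 11 probes were well above background on every array. The 75th percentile itself lay between 1700.87 and 3132.89 units of signal, and 70.72% to 81.85% of spots were well above background. The 6 markers of lung epithelium and vessels had a summed log2 level between 8.97 and 9.46 in all rats. This sum is of unlogged levels, so the brightest markers set most of it. Heart muscle markers were called higher at 1000 ppm in 5 of the 7 measured, and their summed log2 level ran from 1.55 to 5.19 in controls and from 3.00 to 7.02 in the middle-dose group. Their part in the results was not tested. Sex labels were not checked against sex-linked genes.

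Ddit4 (NM_080906) stood lower in every exposed group than in the controls on average. The 6 controls ran from 0.25 through a median of 2.06 to 3.60, and the low-dose rats from 0.18 through 1.09 to 2.12. The middle-dose rats ran from -0.11 through 0.61 to 1.41, and the high-dose rats from 0.09 through 0.33 to 1.46. The groups overlapped at every dose. Control females 21 and 22 stood at 0.25 and 0.97, against 2.05 to 3.60 in the other 4 controls. The differences of the means from control were -0.88, -1.33 and -1.43 in order of dose, each with an SE of 0.43 and n = 6 a group. These are levels 1.84-fold, 2.51-fold and 2.70-fold lower. With the slide as a block the differences were -1.30, -1.88 and -1.84, with SEs of 0.43, 0.57 and 0.72. That fit ties the controls to the exposed groups only through low-dose rats 6 and 26, the lowest low-dose rats of their sex. Without the block and without control male 1, the first and last differences were -0.55 and -1.11. With arrays weighted by their quality the 3 were -0.37, -0.86 and -1.07.

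The second Ddit4 probe gave the same order, with group means of -2.41, -3.35, -3.77 and -3.86 from control to high dose. Within single slides the comparison runs only between neighbouring doses. On the 2 slides with controls, the 1 low-dose rat was lower than the mean of the 3 controls by 1.67 in males and 0.93 in females. Low-dose to middle-dose differences were -0.78 and -0.39, and middle-dose to high-dose differences were 0.36 and -0.28. The difference from control to low dose was the largest of these in both sexes, but it rested on 1 low-dose rat a sex. Each was the lowest low-dose rat of its sex. The male stood at 1.14 against a mean of 1.59 for low-dose males, and the female at 0.18 against 0.57 for low-dose females. Which step between doses was the largest therefore cannot be read from these slides.

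Errfi1 (NM_001014071) followed the same order of groups over a smaller range. The controls ran from 2.50 through 3.15 to 3.90, the low-dose rats from 2.44 through 2.78 to 2.98, the middle-dose rats from 2.08 through 2.62 to 3.13 and the high-dose rats from 2.15 through 2.31 to 2.60. The high-dose group overlapped the controls by 1 rat, the other 5 being lower than all of them. The differences from control were -0.36, -0.53 and -0.78 with an SE of 0.19.

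None of the other 7 genes was called at any dose by the 1.5-fold rule described further on. Zbtb16 was 0.83, 0.58 and 0.36 above control at the 3 doses with an SE of 0.61, and 3 of 6 low-dose rats were above all controls. With sex as a covariate the value at 600 ppm had an SE of 0.33 and would be called, and the change there was 0.88 in males and 0.78 in females. Fkbp5 differed by -0.02, 0.26 and 0.05 with an SE of 0.62. The wide errors of both contain the distance between the sexes described further on. Tsc22d3 differed by -0.09, -0.17 and -0.25 (SE 0.21), Sgk1 by -0.07, -0.17 and -0.20 (SE 0.15) and Klf9 by -0.06, -0.03 and -0.21 (SE 0.14). The receptor gene Nr3c1 stayed within 0.03 of control in the mean of every dose group (SE 0.11), and Hsd11b1 within 0.09 (SE 0.14).

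**Figure D1:**
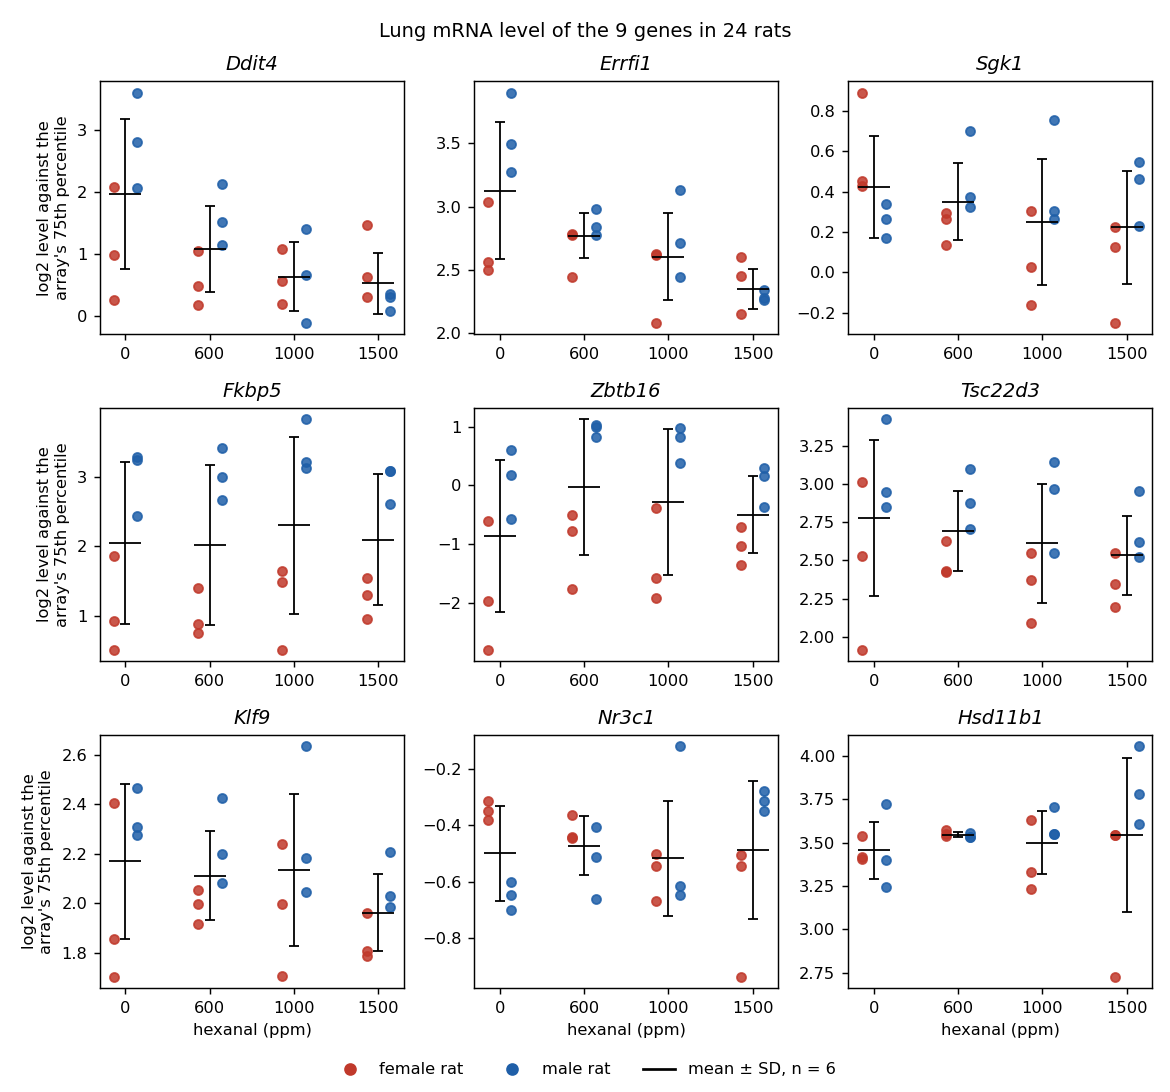
Lung mRNA level of each of the 9 genes, one panel a gene, in the 6 rats of each dose group. The x axis is the hexanal dose in ppm and the y axis the log2 level against the array's 75th percentile, with its own range in each panel. Points are rats, and bars are the mean and SD of 6. Ddit4 falls from a control mean of 1.96 to 0.52 at 1500 ppm with overlapping groups, while females and males of Fkbp5 form separate bands at every dose.

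Genes were called at the study's thresholds, 1.5-fold and an unadjusted p under 0.05, with limma's p in place of the methods' t-test. By this rule 0 of the 9 genes were called at 600 ppm, Ddit4 alone was called lower at 1000 ppm, and Ddit4 and Errfi1 were called lower at 1500 ppm. Ddit4 was not called at 1000 ppm with array weights (-0.86, SE 0.43), and Errfi1 was not called with the slide as a fixed block (-0.66, SE 0.35). At 600 ppm Ddit4 was called lower with quantile normalization, with sex as a covariate and with the slide as a fixed or random block, and Zbtb16 higher with sex as a covariate and with array weights. Over all 21263 genes and unnamed probes tested, 0.16% were called higher and 0.456% lower at 600 ppm, 1.29% and 0.343% at the middle dose, and 0.701% and 0.522% at the highest. The 9 genes were chosen with these comparisons in view, so nothing is read from their share. In 0 of the 9 did the exposed and control rats separate without overlap. Over all features this happened with all exposed rats higher in 0.0946%, 0.26% and 0.312% at the 3 doses, and with all exposed rats lower in 0.18%, 0.194% and 0.17%.

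A further 49 genes of the pathway were listed beside the 9, and 45 of the 47 on the array were tested. This list, like the other lists below, was drawn up with earlier results of these data known. Its calls and counts by dose are therefore no independent evidence. None of the 45 was called at 600 ppm, with 4 at an unadjusted p under 0.05 by limma. At 1000 ppm, 2 were called lower and 0 higher. At 1500 ppm, 4 were called lower and 0 higher, a count that became 2 without control male 1 and 7 without control female 21. At 1000 ppm the same omissions gave 1 and 4. None had an adjusted p under 0.05 at any dose, the smallest being 0.182 at 1500 ppm by limma with Benjamini-Hochberg adjustment over all features. At the upper doses 5 and 8 had an unadjusted p under 0.05 by limma. Over all 21263 features this held for 920, 1910 and 1480 at 600, 1000 and 1500 ppm.

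All of these calls fell among the 25 tested induced targets. Dusp1, a phosphatase that switches off MAP kinases, ran from -0.39 through -0.09 to 0.86 in controls and from -2.06 through -1.16 to -0.45 in the high-dose rats. Every high-dose rat was below every control, and the difference was -1.32 (SE 0.30, adjusted p = 0.182 by limma). Cebpd, a transcription factor of the acute response, differed by -0.79 in the middle-dose and -1.01 in the high-dose group (SE 0.26), with 5 of 6 high-dose rats below all controls. Nfkbia, the inhibitor that holds NF-kB in the cytoplasm, differed by -0.63 and -0.65 in the same groups (SE 0.24). Arrdc3, an arrestin-domain protein, differed by -0.63 at 1500 ppm (SE 0.15), with 5 of 6 high-dose rats below all controls. At 1500 ppm 21 of the 25 induced targets had a lower mean than control and their median difference was -0.19, while the medians at 600 and 1000 ppm were both -0.04. Over all features 9830 of 21263 had a lower mean at 1500 ppm, with a median of 0.01. Dusp1, Cebpd and Nfkbia are also induced by inflammatory and growth signals.

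**Figure D2:**
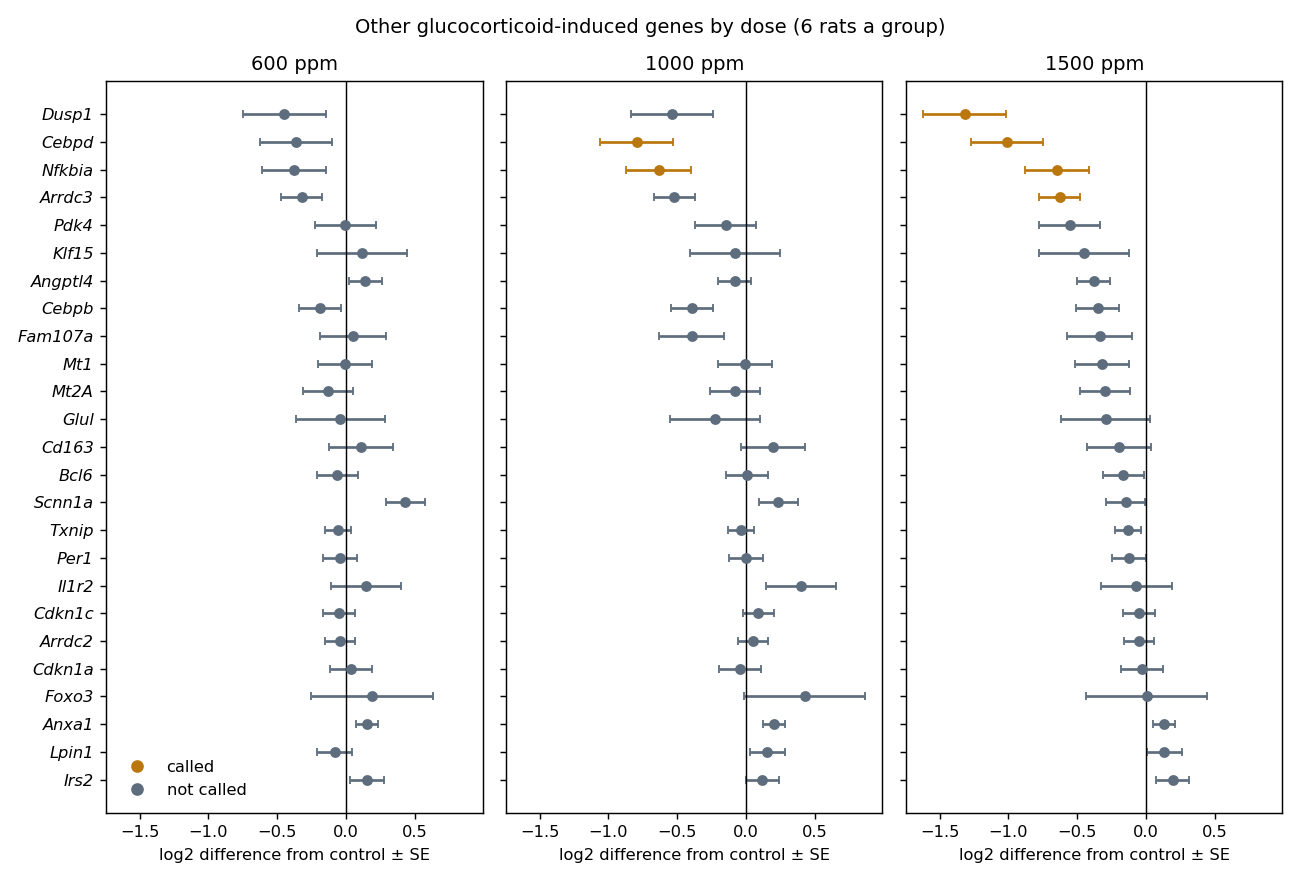
Difference from control, in log2 level with its SE, of the 25 other glucocorticoid-induced genes at 600, 1000 and 1500 ppm, 6 rats a group. Coloured points are genes called by the 1.5-fold rule and the calls are 0, 2 and 4 from left to right, all lower than control, and most of the remaining genes lie within 0.5 of zero.

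The 11 tested genes of the receptor complex and of steroid supply, such as the chaperone genes Hsp90aa1 and Hsp90ab1 and the steroid-inactivating enzyme Hsd11b2, held 0 calls at every dose (2, 0 and 1 at an unadjusted p under 0.05 by limma), and their median difference at 1500 ppm was -0.07. The 9 tested inflammatory genes that glucocorticoids repress also held 0 calls and 0 such p-values, with a median of -0.02 at 1500 ppm. Of these 9, 4 had a higher and 5 a lower mean than control at 1500 ppm. Among the higher, Ccl2, a monocyte chemoattractant, was at 0.60 (SE 0.30) and Tnf at 0.29 (SE 0.21).

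Around Ddit4 itself, 19 of 21 listed genes were tested. They comprised 9 of mTORC1 signalling and 10 that belong to other inducers of Ddit4, namely the amino acid and unfolded protein response, hypoxia and p53. None was called at any dose, with 1, 1 and 0 at an unadjusted p under 0.05 by limma from low to high dose. The hypoxia targets Vegfa and Slc2a1 differed by 0.14 (SE 0.15) and 0.17 (SE 0.14) at 1500 ppm, and the stress factors Atf4 and Ddit3 by -0.10 (SE 0.06) and 0.03 (SE 0.09).

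Lists outside the glucocorticoid pathway also held calls. Of 14 tested circadian clock genes, 6 were called higher and 3 lower at 1500 ppm, with Dbp at 2.06 and Bmal1 at -1.04. Of 18 immediate early genes, 8 were called lower, with Fos at -2.42. Their part in the values of Ddit4 and Errfi1 was not tested.

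The sexes were compared next. This comparison was not used to choose the genes and was tested with the dose groups held fixed. All 9 had a lower mean in females, and for 4 the difference passed an adjusted p of 0.05 by limma, 0 of them higher in females. Over all features 15.6% were higher and 9.34% lower in females by the same test, the median of all features being 0.03.

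Fkbp5 (NM_001012174) separated the sexes completely. The 12 females ran from 0.52 through 1.13 to 1.86 and the 12 males from 2.43 through 3.11 to 3.83. The difference was -1.93 (SE 0.17), a 3.81-fold higher level in males, with an adjusted p of 3.37e-07 by limma. In the group means the males were higher in all 4 groups, with means of 3.39 against 1.22 in the middle-dose and 2.93 against 1.27 in the high-dose group. With the slide as a random block the adjusted p was 1.05e-05. Among all features, 0.104% had all females below all males and 0.365% the reverse.

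Zbtb16 (NM_001013181) had the second largest difference. Females ran from -2.80 through -1.19 to -0.39 and males from -0.56 through 0.50 to 1.04, and 10 of 12 females lay below every male. Males were 3.31-fold higher (-1.73, SE 0.23, adjusted p = 3.63e-05 by limma). Tsc22d3 was 1.38-fold higher in males (-0.47, SE 0.11, adjusted p = 0.0035 by limma) with 7 of 12 females below every male. Klf9 was 1.22-fold higher (-0.28, SE 0.08, adjusted p = 0.0139 by limma). With the slide as a random block Zbtb16 and Tsc22d3 stayed under the threshold at 0.000557 and 0.0231 and Klf9 did not, at 0.0616.

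The other 5 genes did not pass. Errfi1 differed by -0.32 (SE 0.12, adjusted p = 0.0568 by limma) and Ddit4 by -0.56 (SE 0.29, adjusted p = 0.166). Sgk1, Hsd11b1 and Nr3c1 differed by -0.17, -0.18 and -0.01, with SEs of 0.10, 0.09 and 0.08.

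The same comparison was then run on the 45 other glucocorticoid genes, after the values of the 9 had been seen. In all, 12 were lower and 2 higher in females at an adjusted p under 0.05 by limma, and 6 and 0 with the slide as a random block, by which 956 of all 21263 features were lower and 1874 higher. As single rats were left out, 8 (without control 22 or middle-dose 12) to 13 were lower and 2 to 4 higher (4 without control 1, low-dose 26 or middle-dose 32). Of the 25 induced targets 10 were lower and 0 higher in females, with a median of -0.26. With the slide as a random block 4 of them were lower and 0 higher. Klf15, a transcription factor of amino acid and glucose metabolism, was 1.81-fold higher in males (-0.86, SE 0.15). Its females ran from 0.71 through 1.48 to 1.82 and its males from 1.43 through 2.33 to 2.71. Il1r2, a decoy receptor for interleukin 1, was 1.56-fold higher in males, and the metallothionein gene Mt2A 1.34-fold higher. The receptor co-chaperone genes Fkbp4 and Stip1 were each 1.39-fold higher in males. The 2 genes higher in females were Cxcl2, a neutrophil chemoattractant (1.66-fold), and Ptgs2, the inducible prostaglandin synthase (1.58-fold), both among the repressed targets. Ptgs2 was dim, with levels from -7.17 to -5.13 over all rats. The genes of this paragraph were named after their values were seen.

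**Figure D3:**
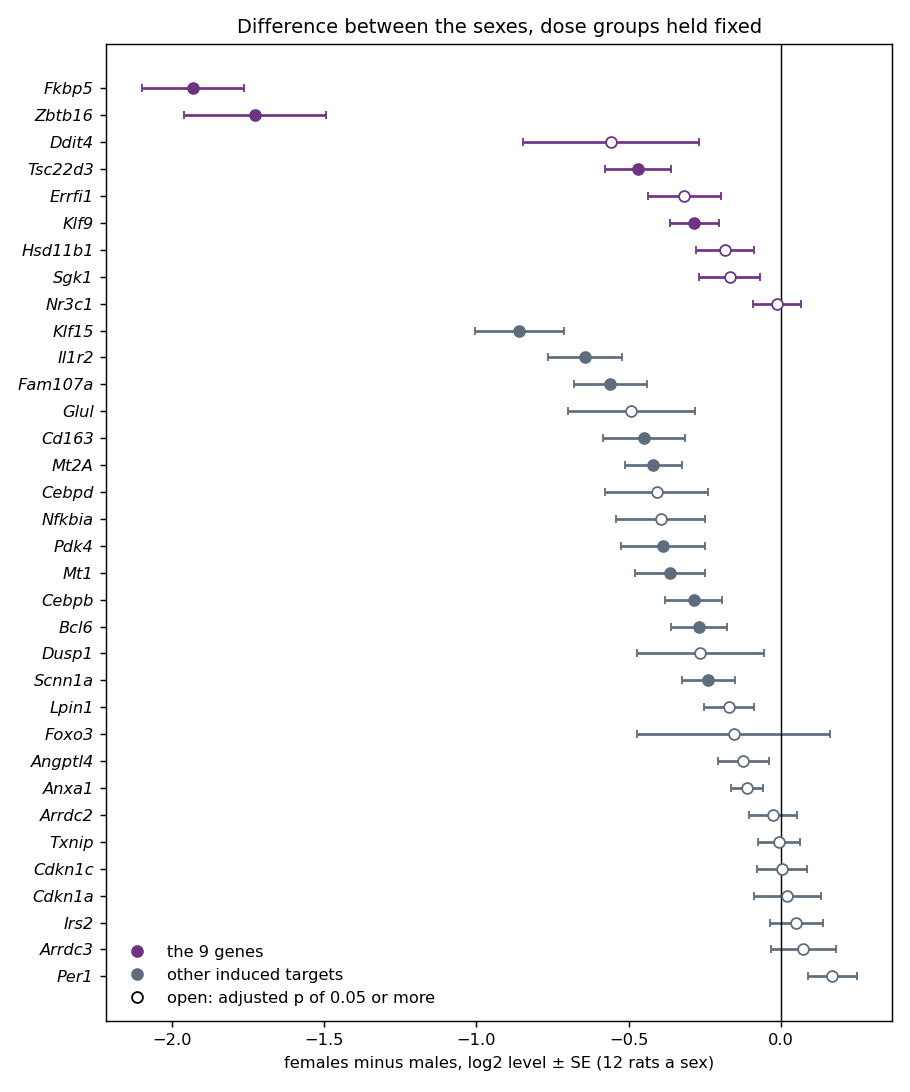
Female minus male difference in log2 level with its SE, over 12 rats a sex with the dose groups held fixed, for the 9 genes and 25 other glucocorticoid-induced genes. Filled points have an adjusted p under 0.05 by limma in the fit without slide. With the slide as a random block 3 of the 9 and 4 of the 25 passed. Fkbp5 at -1.93 and Zbtb16 at -1.73 lie farthest from zero, and every filled point is on the side of lower levels in females.

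Some markers of cell types also differed between the sexes. Of 6 T cell markers 5 were higher in females, with a summed log2 level from 1.18 to 2.02 in females and 0.81 to 1.42 in males. Of 4 measured red cell markers 3 were lower in females, with summed levels from 5.97 to 7.30 and 6.89 to 7.70. Of 14 clock genes 4 were higher and 1 lower in females. With the slide as a random block these counts were 4 T cell markers, 2 red cell markers, and 2 clock genes higher and 1 lower. Of the 6 markers of lung epithelium and vessels 1, Ager, was lower in females (-0.31, SE 0.08). Its adjusted p was 0.0062 by limma and 0.0346 with the slide as a random block. Of 5 skeletal muscle markers 1 was higher in females by both fits, and of the heart muscle and fat markers 0 differed. The part of all these markers in the differences of the glucocorticoid genes was not tested.

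The dose differences of some of the 9 genes were then set side by side in the sexes. In males Ddit4 went from 3.60, 2.79 and 2.05 in the controls to 0.31, 0.36 and 0.09 at 1500 ppm, so that every high-dose male was below every control male. The same separation was seen in 9.74% of all features. In females it went from 0.25, 0.97 and 2.07 to 0.63, 0.30 and 1.46, and the groups overlapped. The change was -2.56 in males and -0.30 in females. The difference between these changes, 2.26 (SE 0.67), had an adjusted p of 0.0585 by limma, and with the slide as a block it was 0.50 (SE 1.51). Ddit4 had been picked from genes that fell on average in both sexes, which bears on this comparison.

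Errfi1 had the same shape, with a change of -1.26 in males and -0.30 in females and a difference of 0.97 (SE 0.28, adjusted p = 0.055 by limma; 0.51 with an SE of 0.66 with the slide as a block). Sgk1 went the other way, with 0.15 in males and -0.55 in females (difference -0.71, SE 0.23, adjusted p = 0.0877 by limma). With the slide as a block the difference of Sgk1 was -0.98 (SE 0.55). Neither passed the threshold.

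Nr3c1, the receptor gene, was the one of the 9 to pass. Its control males stood at -0.60, -0.70 and -0.65 and its high-dose males at -0.31, -0.35 and -0.28. Its control females stood at -0.32, -0.35 and -0.38 and its high-dose females at -0.94, -0.54 and -0.50. Males were thus higher and females lower at 1500 ppm than their controls, without overlap in either sex. Of all features, 16% had every high-dose male above and 9.74% below every control male, and in females these shares were 9.12% and 12.2%. The difference between the changes was -0.65 (SE 0.17, adjusted p = 0.0361 by limma). Over all features 1.2% had a higher and 3.82% a lower change in females by this test. With the slide as a block the difference was 0.17 (SE 0.31, adjusted p = 0.817), and controls and high-dose rats of each sex lay on different slides. The second Nr3c1 probe had means of -2.73 in control and -2.51 in high-dose males, and -2.76 and -2.69 in females.

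**Figure D4:**
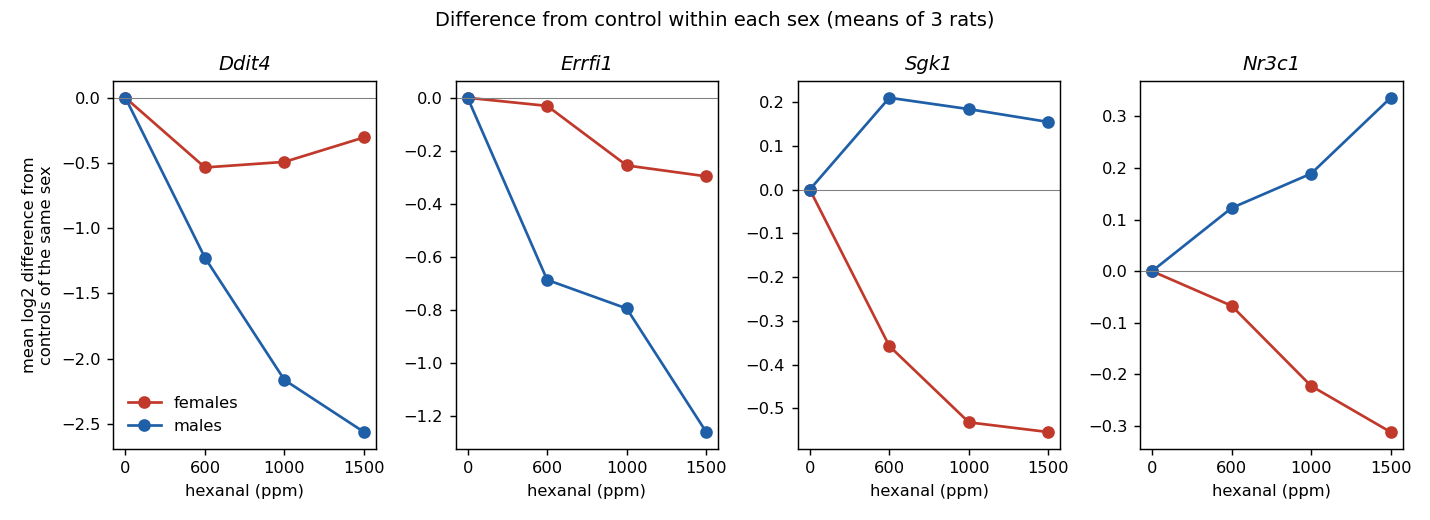
Mean difference from controls of the same sex, in log2 level, of Ddit4, Errfi1, Sgk1 and Nr3c1 at each dose in ppm, 3 rats a point and 0 for the controls themselves. The male line of Ddit4 descends to -2.56 and the female line ends at -0.30, while Nr3c1 ends at 0.34 in males and -0.31 in females.

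Rats of one group also differed among themselves, and several of the genes varied together. Each level was taken as its deviation from the mean of its dose group and sex, and all 36 pairs were compared over 24 rats, with a two-sided permutation test within group and sex and adjustment over the 36. In all, 8 pairs passed on Pearson's r, all positive, and 4 of these also passed on Spearman's rho. This set of pairs was chosen after the values had been seen. Pairs of other genes were not tested, so no share over all genes stands beside these counts.

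Fkbp5, Klf9 and Tsc22d3 varied together. Fkbp5 and Klf9 had r = 0.83 and rho = 0.78 (permutation p = 0.00028 and 0.00114, adjusted 0.0072 and 0.0205). Tsc22d3 had r = 0.82 with Klf9 and rho = 0.74 (permutation p = 0.0004 and 0.0023, adjusted 0.0072 and 0.0276), and r = 0.81 with Fkbp5 and rho = 0.84 (permutation p = 0.00068 and 0.00028, adjusted 0.00816 and 0.0101). These 3 pairs were positive in both sexes, from 0.68 to 0.92, and between 0.79 and 0.81 once slide means were removed. Without the 2 rats farthest from the median they were 0.75, 0.74 and 0.76.

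Ddit4 varied with Errfi1 (r = 0.72, permutation p = 0.00614, adjusted 0.0316). It had rho = 0.65 (permutation p = 0.0104, adjusted 0.0694). The correlation was 0.95 in the 12 males and 0.52 in the 12 females, 0.63 without the 2 farthest rats and 0.66 with slide means removed. The last did not pass (adjusted permutation p = 0.0762 over the relations with Ddit4). Ddit4 with Sgk1 gave r = 0.67 (permutation p = 0.00593, adjusted 0.0316) and rho = 0.56 (permutation p = 0.0199, adjusted 0.0796). Its r was 0.54 without the 2 farthest rats and 0.52 with slide means removed. Ddit4 with Fkbp5 gave r = 0.32 (permutation p = 0.267, adjusted 0.385) and rho = 0.28. The remaining pairs that passed on r were Sgk1 with Klf9 (0.75), Sgk1 with Errfi1 (0.66) and Zbtb16 with Klf9 (0.70). On rho the adjusted permutation p of these 3 was 0.0771, 0.0694 and 0.0286. Their r was 0.62, 0.53 and 0.53 without the 2 farthest rats. With slide means removed it was 0.72, 0.37 and 0.64. Nr3c1 and Hsd11b1 were in none of the 8. The comparison planned beforehand used deviations from dose group means alone. There Nr3c1 ran against Ddit4 (r = -0.49, adjusted permutation p = 0.0186), while Errfi1, Klf9, Tsc22d3 and Zbtb16 passed with positive r. Once sex means were also removed, r of Nr3c1 with Ddit4 was -0.17 (adjusted permutation p = 0.617). Klf9, Tsc22d3 and Zbtb16 then did not pass either (adjusted permutation p = 0.0523, 0.0927 and 0.0927). Errfi1 and Sgk1 passed, both at an adjusted permutation p of 0.0257. These values are adjusted over the 8 relations with Ddit4.

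**Figure D5:**
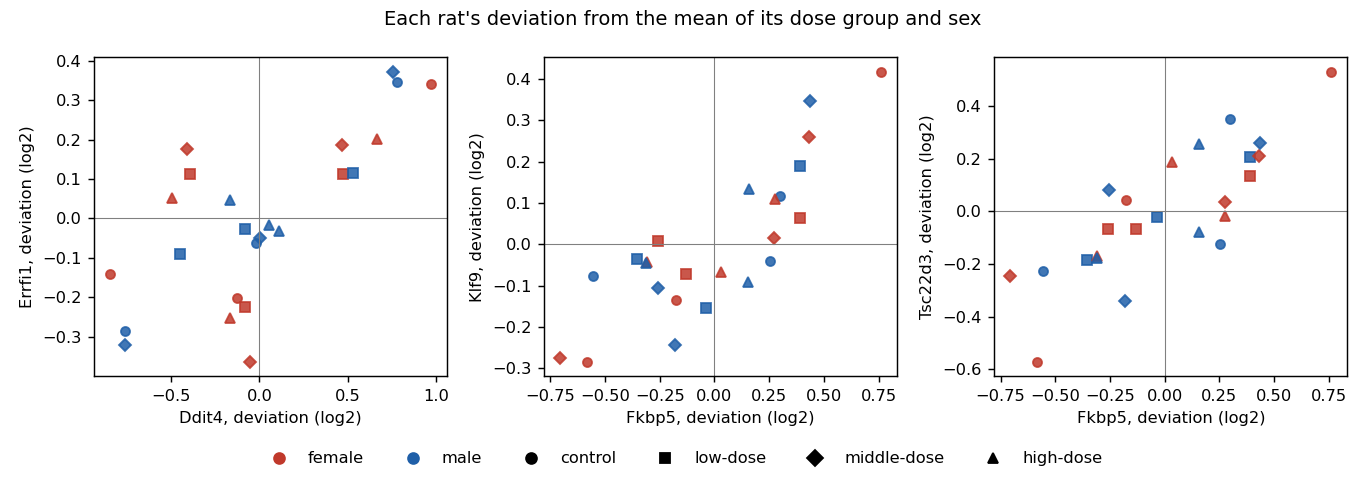
Deviation of each rat from the mean of its dose group and sex, in log2 level, for Errfi1 against Ddit4 and for Klf9 and Tsc22d3 against Fkbp5. Points are the 24 rats, coloured by sex and shaped by dose group; the correlations are 0.72, 0.83 and 0.81 from left to right.

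Over the 24 arrays as they stand, the genes whose levels ran most like Ddit4 among 12501 others were Cebpd (r = 0.92), Tcim (0.88), Arl4a (0.88), Errfi1 (0.87) and Nfkbia (0.87). Those most like Fkbp5 were Rapgef5 (0.95), Tent5b (0.91), Map3k6 (0.91), Bcl2l1 (0.90) and Rapgef3 (0.90). Rapgef3 encodes a cAMP-activated exchange factor and Bcl2l1 an inhibitor of apoptosis. These values are a description: they contain the dose and sex differences that the arrays share, and no gene is in both sets.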

How the data were processed

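The authors deposited the scanner output of 24 Agilent 1-colour rat arrays, made with Feature Extraction 11.5.1.1 per the file headers. Background had been subtracted from the deposited intensities, which carry no scaling from one array to the next. The authors' value table, with the same intensities, served as an alternative.

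Spots flagged as outliers were left out (266 to 370 an array), and the rest averaged into 30367 probes, of which 18355 (60.4%) were matched by accession to 15443 symbols in the RefSeq table of GRCr8. Probe coordinates are not given, since the design used an older build. Values are the log2 of the deposited processed signal relative to the array's own 75th percentile. The filter kept 23624 probes that 5 or more of the 6 arrays in some group measured well above background. A gene with several probes was represented by the brightest, which gave 21263 features. R 4.3.3 with limma 3.58.1 (lmFit, eBayes) was used on all 24 arrays. Changed genes were called at 1.5-fold and an unadjusted p under 0.05 by limma, and other tests at a Benjamini-Hochberg adjusted p under 0.05 over all features. Correlations used 100000 permutations. The spread between rats is that of 6 animals a group.

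The 9 genes and all lists were chosen with earlier results of these data known. Named were the 9 genes, up to 4 called genes of each list and dose with the largest change, and the 5 genes most like Ddit4 and Fkbp5. Genes without a call, such as Ccl2, Vegfa and Hsd11b2, were also named as examples outside this rule. The sex difference in the other lists and the 36 pairs were added after values were seen. Tested on simulated data of 21263 features with 200 changed 2-fold, the fit called 96.5% in the right direction at 1000 ppm by the 1.5-fold rule, together with 174 unchanged features, and 84% by adjusted p. By adjusted p it called 97% between the sexes and 46% for the difference of changes at 1500 ppm. Alternatives were normexp background correction with offset 50, quantile and median scaling, the deposited table, the methods' t-test, a looser and a stricter dim filter, fits of 1 dose with its controls, sex as a term, slide as a fixed and a random block, array weights, and leaving out each rat. No block by scan day was made since all arrays were scanned on 1 day.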

Additional observations from a re-analysis of the deposited data

Results flagged for a closer look

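The difference between the sexes in the change of Nr3c1 at 1500 ppm, -0.65 on the log2 scale for females minus males, passed the test of that difference itself. Control and high-dose rats of each sex lay on different slides, and with the slide as a block the value was 0.17. The second Nr3c1 probe was not lower in females, with means of -2.76 in controls and -2.69 at high dose.

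In the middle-dose group, Nr3c1 of male 13 lay far above the other 5 rats: its gap to the nearest covered 0.70 of the group's range, over the limit of Dixon's test for a group of 6. It was the only middle-dose male on the slide of the high-dose males. With the slide as a block, high-dose males are therefore tied to the other males only through this rat. This was 1 of 36 groups examined, and chance marks about 1 in 20.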

How the results depend on the processing

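No paired analysis was possible because rat numbers are not shared between dose groups. The differences of the 9 genes from control were recomputed 351 times under the alternatives, and 350 stayed within 1 SD of the value given. That limit is loose for a gene of wide spread, so the count is no measure of stability. Fkbp5 at 1500 ppm, 0.05 as given, was 0.90 with array weights and -0.50 with the slide as a fixed block. Both counted as within the limit. No difference called by the 1.5-fold rule changed sign, but calls were lost and gained. Errfi1 at 1500 ppm was not called with the slide as a fixed block (-0.66) and Ddit4 at 1000 ppm was not called with array weights (-0.86). At 600 ppm Ddit4 was called lower with quantile normalization (-0.91), sex as a covariate (-0.88) and the slide as a fixed (-1.30) or random block (-1.04), and Zbtb16 higher with sex as a covariate (0.83) and array weights (1.45). The value outside 1 SD was Nr3c1 at 1500 ppm, 0.01 as given and -0.29 with the slide as a fixed block. The number of the 9 genes that differed between the sexes was 3 with the slide as a random block, and 4 to 5 as single rats were left out.

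Among the other glucocorticoid genes, 0 were called at 600 ppm, but 1 with the filter on all arrays, with sex as a covariate, and with the slide as a fixed or a random block, and 0 to 1 as single rats were left out. At 1000 ppm the 2 calls became 1 by the methods' t-test, 4 with the slide as a fixed block and 1 with array weights, and 1 (without control male 1) to 4 (without control female 21) as single rats were left out. At 1500 ppm the 4 calls became 2 with array weights, and 2 (without control male 1) to 7 (without control female 21) as single rats were left out. In the list around Ddit4, 0 to 1 genes were called at 1000 ppm as single rats were left out, 1 without control female 21.

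The 1 gene whose change at 1500 ppm differed between the sexes became 0 with normexp, median scaling, no filter, and the slide as a random or a fixed block. It became 2 with the filter on all arrays and 3 with array weights, and ran from 0 (without control male 1) to 3 (without middle-dose male 12). Of 8 relations with Ddit4, 5 passed on deviations from group means alone, 2 once sex means were also removed and 0 once slide means were removed. Signal limits little here, since the 11 probes were well above background on all arrays. The number of rats, 3 of a sex in a group, limits the comparisons between the sexes.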
